A study of Mus musculus with 8 samples.

Results

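A set of 10 genes of the pluripotent state was followed through the first days of reprogramming, namely L1td1, Tfcp2l1, Gdf3, Fgf4, Tdh, Nanog, Esrrb, Zfp42, Utf1 and Dppa3. They are 10 of the 32108 genes of the expression table, taken by symbol. The genes were chosen by their measured CPM by day in these libraries, as genes of 1 network that either had higher values by D8 or stayed near 0, so their levels are given here as a description and without a test. Of the 10 genes 5 passed the filter on low values, at least 1 CPM (reads of a gene scaled to a library total of 1000000) in at least 2 of the 8 libraries: L1td1, Tfcp2l1, Gdf3, Fgf4 and Tdh. The other 5 stayed below it in every library.

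The cells were 4F2A MEFs, mouse embryonic fibroblasts that carry a cassette of Oct4, Sox2, Klf4 and c-Myc that doxycycline induces. Per the labels they came from homozygous male embryos of 13.5 dpc, and all groups received 2 µg/mL doxycycline from D0, in KnockOut DMEM that was renewed daily and held 1000 U/mL LIF and KnockOut Serum Replacement at 15%. The groups D2, D4, D6 and D8 differ only in the day of harvest and hold 2 libraries each, called replicates 1 and 2. The sample titles call every library a control. A sample from D0 or without doxycycline was not analysed here, so every level is one under induction and every difference is between days of induction. Whether a day's libraries stem from separate cultures or embryos is not in the labels, so p-values measure only the spread between these samples, and that spread may be technical.

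The libraries held 19409936 to 20161021 counted reads. In them 3 reads, about the upper limit for a count of 0 at 95% confidence, correspond to 0.149 to 0.155 CPM. Fibroblast markers (Col1a1, Col1a2, Col3a1, Thy1, Pdgfra, Pdgfrb and Vim) were all above the filter and summed to 25625 to 42979 CPM. The label of male embryos did not match the data: Xist, the RNA of the inactive X chromosome, lay between 702 and 1238 CPM, and 4 genes of the Y chromosome (Ddx3y, Kdm5d, Eif2s3y and Uty) together at 0.221 to 0.539 CPM. Being bulk RNA, these libraries cannot tell fewer cells that express a gene apart from less RNA of it per cell.

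Pluripotent cells of the mouse are held in their state by a network of transcription factors centred on Oct4, Sox2 and Nanog, with Esrrb, Tfcp2l1 and Zfp42 (Rex1) among the factors of its naive form. The network also controls secreted signals such as Fgf4 and Gdf3, a metabolic enzyme, Tdh, and factors such as Utf1 and Dppa3 (Stella) that act on chromatin. In fibroblasts these genes are largely silent. During reprogramming they are switched back on in an order, and Nanog, Esrrb, Utf1 and Dppa3 are commonly counted among the late ones.

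On D8 the 10 genes fell into separate ranges. Per kilobase of exon, which allows levels of different genes to be compared, L1td1 was highest at 35.6 ± 1.24 CPM per kb (SD, n = 2, as for all errors of levels below). Gdf3 followed at 3.28 ± 0.000482, Tdh at 2.60 ± 0.273, Fgf4 at 1.62 ± 0.199 and Tfcp2l1 at 0.850 ± 0.0324 CPM per kb. Neighbours in this order did not overlap on D8 among these 5 genes. Nanog came next at 0.211 ± 0.0603 CPM per kb and Zfp42 at 0.123 ± 0.0962, and these levels differed by less than their spread. Utf1 at 0.0420 ± 0.0594 and Esrrb at 0.00852 ± 0.0120 CPM per kb rested on 2 reads each over both D8 libraries, and Dppa3 was at 0. Of the genes above the filter the lowest D8 mean was that of Fgf4, 5.17 CPM, and of those below it the highest single library was one of Nanog, 0.569 CPM.

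**Figure D1:**
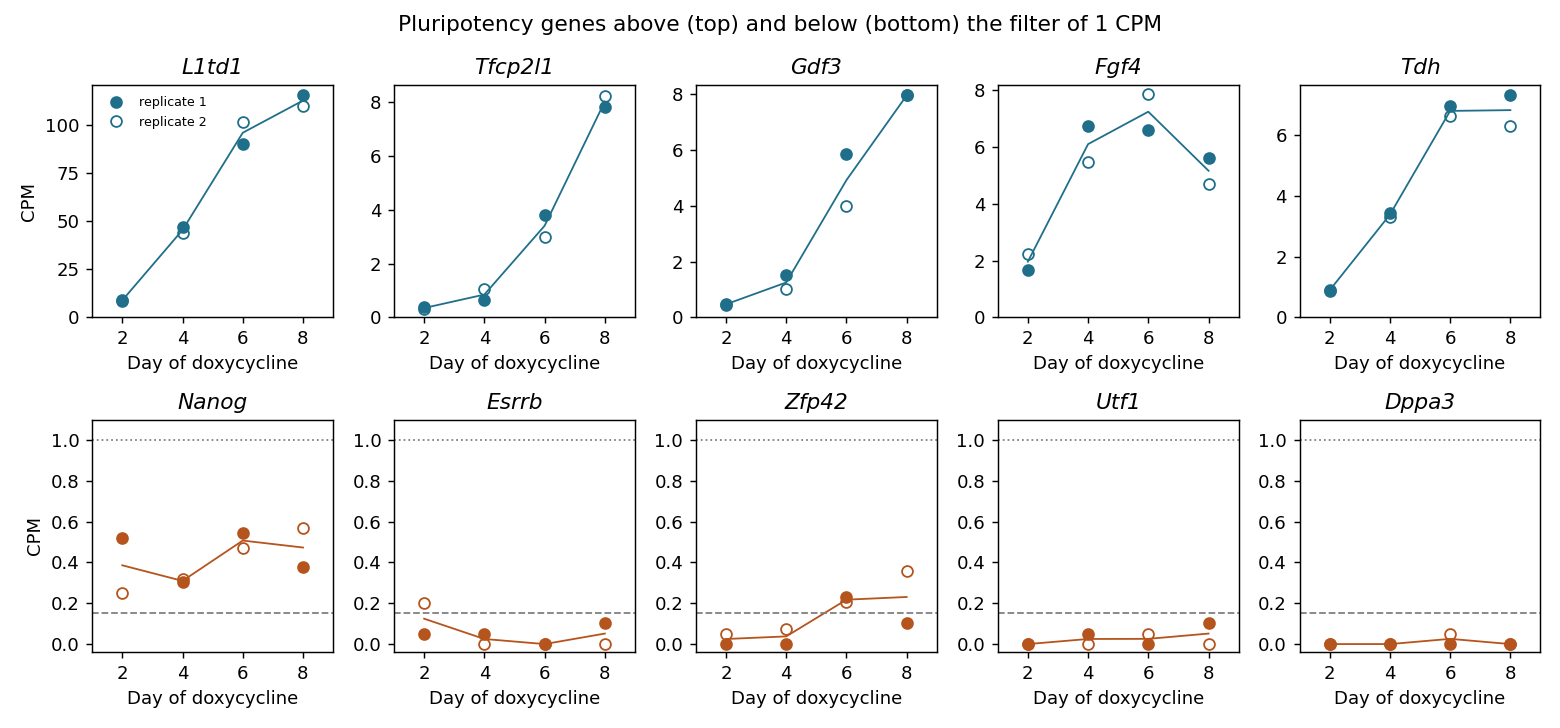
CPM of each gene (y axis, linear, own scale in the upper panels) against the day of doxycycline (x axis), with filled circles for replicate 1, open circles for replicate 2 and a line through the means; in the lower panels the dotted line marks the filter of 1 CPM and the dashed line the level of 3 reads. The 5 upper genes were higher on D8 than on D2 in both libraries, while no library of the 5 lower genes exceeded 0.569 CPM.

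The promoters of L1td1 and Tfcp2l1, which had clear expression on D8, and of Nanog and Zfp42, which did not, are shown to set the sequence upstream of both kinds of gene side by side. Each is the 250 bases upstream of a RefSeq start site in build GRCm38.p6, read 5′ to 3′ in the direction of the gene, at chr4:98726504-98726753 on the plus strand for L1td1, chr1:118627695-118627944 on the plus strand for Tfcp2l1, chr6:122707239-122707488 on the plus strand for Nanog (the first of its 2 listed start sites) and chr8:43307010-43307259 on the minus strand for Zfp42. Capitals mark motif matches.
L1td1: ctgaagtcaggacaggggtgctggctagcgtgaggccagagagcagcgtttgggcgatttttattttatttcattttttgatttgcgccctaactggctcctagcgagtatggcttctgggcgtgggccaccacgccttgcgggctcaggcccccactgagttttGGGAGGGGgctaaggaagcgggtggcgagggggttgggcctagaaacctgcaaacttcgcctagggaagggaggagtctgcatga
Tfcp2l1: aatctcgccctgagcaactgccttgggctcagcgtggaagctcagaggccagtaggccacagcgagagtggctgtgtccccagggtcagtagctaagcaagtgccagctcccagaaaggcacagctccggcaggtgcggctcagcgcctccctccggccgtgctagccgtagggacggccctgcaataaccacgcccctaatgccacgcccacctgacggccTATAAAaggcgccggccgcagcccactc
Nanog: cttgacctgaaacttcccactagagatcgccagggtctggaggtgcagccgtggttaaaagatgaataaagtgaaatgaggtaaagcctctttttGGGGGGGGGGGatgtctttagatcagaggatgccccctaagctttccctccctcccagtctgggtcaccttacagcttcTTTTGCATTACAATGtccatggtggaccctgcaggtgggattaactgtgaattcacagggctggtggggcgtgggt
Zfp42: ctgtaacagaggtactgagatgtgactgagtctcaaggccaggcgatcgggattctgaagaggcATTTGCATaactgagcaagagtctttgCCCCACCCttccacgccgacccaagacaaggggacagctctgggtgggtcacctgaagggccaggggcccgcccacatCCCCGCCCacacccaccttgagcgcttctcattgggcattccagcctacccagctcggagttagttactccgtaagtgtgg

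Both strands were searched for the octamer ATGCAAAT bound by Oct4 and for the composite Oct-Sox element with up to 2 mismatches. That element is CATTGT, 1 free base and the octamer, which a match with mismatches need not hold exactly. The other motifs were the Esrrb element TCAAGGTCA, the STAT element TTCCNGGAA, the E box CACGTG and the Klf-like box GGGNGGGG. The Tfcp2l1-like repeat (2 copies of CCAG with 6 free bases between) and the TATA box TATAAA were also sought. The Nanog window held an Oct-Sox match with 1 mismatch, TTTTGCATTACAATG, from 76 to 62 bases upstream of its start. The mismatch fell in the octamer part, and this window held no exact octamer. Of all 32817 promoter windows 0.366% held a match with up to 2 mismatches. The Zfp42 window held the octamer from 186 to 179 bases upstream, a match found in 1.60% of all windows. The Tfcp2l1 window held a TATA box from 28 to 23 bases upstream (12.4% of all windows). The L1td1 window held only a Klf-like box, which 30.8% of all windows held and which also occurred in the windows of Nanog, Zfp42, Utf1 and Esrrb. The Fgf4 window held none of these motifs. It lies upstream of a RefSeq start at 144861386, inside the GENCODE span of Fgf4, which begins at 144847367. A window at the GENCODE start was not searched.

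CpG content differed between the promoters. The ratio of observed to expected CpG was 0.675 for Fgf4, 0.638 for Utf1, 0.609 for Tfcp2l1, 0.566 for L1td1 and 0.423 for Zfp42, all above the median of 0.373 over all windows. It was 0.264 and 0.188 at the 2 starts of Esrrb and 0.182 and 0.104 at those of Nanog, below that median. Among the genes with clear expression that matched, 3 of 3 had a ratio above the median, while those near 0 lay on both sides of it. Utf1, near 0, had a higher ratio than Tfcp2l1 and L1td1. A link between CpG content and expression was not tested. RefSeq promoters were matched for 7 of the 10 genes and not for Gdf3, Tdh and Dppa3.

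L1td1 (chromosome 4, 98726734 to 98738480, plus strand, mm10) encodes an RNA-binding protein derived from a LINE-1 element and found in pluripotent cells. It had the highest level and the widest range of the 10 genes. L1td1 stood at 8.78 and 9.09 CPM on D2 (replicates 1 and 2), 47.2 and 43.9 on D4, 90.5 and 102 on D6, and 116 and 110.2 on D8. The 4 days did not overlap at any step, and each day lay above the one before. The mean was 8.93 ± 0.219 CPM on D2 and 113 ± 3.93 on D8, 12.6-fold higher, or a difference of 3.52 on the log2(CPM + 1) scale on which all differences below are given. Of that difference, 63.3% was present by D4 and 93.4% by D6.

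Genes of RNA-binding proteins that act with the same small RNA and translation machinery moved in both directions. Of 8 such genes 6 were tested, of which 2 were higher and 3 lower on D8 than on D2, with a median difference of -0.05 against 0.17 over all tested genes. The higher ones were Mov10 and Trim71, and Trim71 passed the filter only through later days. Over all tested genes, 70.4% were called in D8 against D2, 47.3% higher and 23.1% lower. Mov10, an RNA helicase, rose from 47.4 to 72.5 CPM (0.60 ± 0.08 SE, limma adjusted p = 1.4e-05). Igf2bp2, an mRNA-binding protein, fell by 0.43 (SE 0.05, limma adjusted p = 2.2e-06). Lin28a, the partner of L1td1 in pluripotent cells, had 0.0501 CPM or less as a daily mean, and Lin28b stayed below the filter.

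Tfcp2l1 (chromosome 1, 118627945 to 118685168, plus strand) is a transcription factor of the naive state and a target of LIF signalling through Stat3. Of the 5 expressed genes it had the smallest share of its log2(CPM + 1) difference present by D4 and by D6. Tfcp2l1 was at 0.397 and 0.306 CPM on D2, 0.649 and 1.05 on D4, 3.82 and 2.99 on D6, and 7.81 and 8.24 on D8. No pair of successive days overlapped. From 0.351 ± 0.0643 CPM on D2 the mean was 22.8-fold higher on D8, at 8.02 ± 0.306, a difference of 2.74, of which 16.3% was present by D4 and 62.0% by D6. The D2 values rest on 8 and 6.14 reads, the D8 values on 151.5 and 160.7 reads (the table's counts include fractions).

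The genes of LIF and Stat3 signalling mostly had lower levels on D8. Of 10 genes 9 were tested, 6 fell and 3 rose (23.1% and 47.3% of all tested genes), with a median of -0.46. Pim1, a kinase induced by Stat3, fell by 1.94 (SE 0.13, limma adjusted p = 1.6e-08), from 32.7 to 7.80 CPM. Jak2, a kinase of the receptor, fell by 0.71 (limma adjusted p = 4e-07), Socs3, the feedback inhibitor, by 0.56 (limma adjusted p = 2.4e-06) and Stat3 itself by 0.46 (limma adjusted p = 6.7e-07). Klf4, both a Stat3 target and 1 of the 4 induced factors, was the gene with the largest rise in this list (0.84). Under a median-of-ratios scaling 1 gene of the list was called higher in place of 3, with 6 lower as before. Tfcp2, Ubp1, Grhl1 and Grhl3, from the family of Tfcp2l1, were each called higher on D8 with differences of 0.34 to 0.71, but Tfcp2, Grhl1 and Grhl3 were not called after quantile normalization (limma adjusted p = 0.27, 0.089 and 0.16), nor Tfcp2 after median-of-ratios scaling (limma adjusted p = 0.079).

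Gdf3 (chromosome 6, 122605403 to 122610087, minus strand) is a secreted ligand of the TGF-beta family that signals like Nodal and is typical of pluripotent cells. Gdf3 had 0.496 and 0.448 CPM on D2, 1.503 and 1.00 on D4, 5.84 and 3.99 on D6, and 7.95 in both libraries on D8. Successive days did not overlap, and the D6 libraries were the farthest apart, at 114 and 78 reads. The mean level of 7.95 ± 0.00117 CPM on D8 was 16.8-fold that of D2, 0.472 ± 0.0338, a difference of 2.60, with 23.2% of it present by D4 and 76.4% by D6. The closeness of the D8 libraries, at 154.25 and 155 reads, is narrower than counting error alone would usually give and is not a measure of precision.

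The receptors of Gdf3 were present in part, and its co-receptors were not. Of 17 genes of the Nodal pathway 9 were tested, with a median difference of -0.07 between D2 and D8. Of these 2 rose and 2 fell, against 47.3% and 23.1% of all tested genes. Acvr1b, a type I receptor, rose from 15.2 to 43.5 CPM (1.46 ± 0.07 SE, limma adjusted p = 9e-10). Acvr2a, a type II receptor, rose by 0.47 (limma adjusted p = 2e-05), and Furin, a protease that processes such ligands, fell by 0.52 (limma adjusted p = 1.8e-06). Smad2 fell by 0.14 (limma adjusted p = 0.027), a call that was lost without replicate 1 of D2 (-0.13, adjusted p = 0.15), without replicate 2 of D2 (-0.16, adjusted p = 0.069) and without replicate 1 of D8 (-0.12, adjusted p = 0.12). The co-receptors Tdgf1 and Cfc1 and the transcription factor Foxh1 had daily means of 0.0514 CPM or less, Nodal of 0.0501 or less, and Cer1 was at 0 in all libraries. Lefty1 and Lefty2, secreted inhibitors and targets of this pathway, were below the filter, with means of 0.137 and 0.0125 CPM on D2 and 0.733 and 0.771 on D8. After median-of-ratios scaling or quantile normalization 5 genes of the list were called lower in place of 2, and without either D2 library or without replicate 1 of D8 it was 1.

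Fgf4 (chromosome 7, 144847367 to 144865243, plus strand) is the FGF ligand that pluripotent cells secrete and that prepares them to leave that state. Its course differed in shape from the other 4. Fgf4 was at 1.69 and 2.24 CPM on D2, 6.74 and 5.46 on D4, 6.61 and 7.88 on D6, and 5.62 and 4.72 on D8. The D4 libraries lay above those of D2, the D4 and D6 libraries overlapped, and both D8 libraries lay below both D6 libraries. The mean was 1.96 ± 0.392 CPM on D2, 6.10 ± 0.902 on D4, 7.24 ± 0.895 on D6 and 5.17 ± 0.636 on D8, which is 2.63-fold the D2 level. Successive differences were 1.26, 0.22 and -0.42. The D4 and D8 libraries overlapped.

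Genes of FGF signalling also had their main difference between D2 and D4. Of 17 tested genes 13 rose and 3 fell in D4 against D2, where 40.9% of all tested genes were called higher and 21.7% lower (62.5% in all), with a median of 0.43 against 0.11 over all tested genes. In D6 against D4, where 25.2% were called higher and 12.6% lower (37.7% in all), 2 rose and 7 fell. Spry4 and Dusp6, feedback inhibitors induced by FGF signalling, averaged 5.10 and 5.42 CPM on D2, 23.9 and 22.2 on D4, and 15.5 for each on D8. Both rose between D2 and D8, by 1.44 and 1.36 (limma adjusted p = 1.4e-08 and 6.1e-08). Fgfr3, a receptor, rose by 1.82 (limma adjusted p = 1.2e-08), from 1.44 to 7.58 CPM, and Etv5, a transcription factor downstream of FGF receptors, by 1.40 (limma adjusted p = 1.4e-09). Fgfr1, the receptor with the highest counts, rose by 0.18 (limma adjusted p = 0.0036). Over all tested genes 47.3% were called higher and 23.1% lower in D8 against D2. In D8 against D2, 13 of the 17 genes were called higher and 4 lower, but 5 and 4 after median-of-ratios scaling, and 8 were called higher without replicate 2 of D8.

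Tdh (chromosome 14, 63492347 to 63509092, minus strand) encodes threonine dehydrogenase, the enzyme that feeds threonine into glycine and 1-carbon metabolism in mouse embryonic stem cells. Tdh was at 0.918 and 0.872 CPM on D2, 3.45 and 3.31 on D4, 6.95 and 6.62 on D6, and 7.32 and 6.30 on D8. D2, D4 and D6 did not overlap, whereas the D6 libraries lay between the D8 libraries. The mean was 0.895 ± 0.0325 CPM on D2 and 6.81 ± 0.715 on D8, 7.61-fold higher, a difference of 2.04. By D4 59.2% of this difference was present and by D6 99.9%. An antisense gene, Gm17232, is annotated over Tdh, and the strand setting of the counting is not given in the sources used here, so reads of the 2 genes cannot be told apart.

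The pathway around Tdh moved in both directions. Of 13 tested genes of threonine, glycine and 1-carbon metabolism, 5 rose and 5 fell in D8 against D2, with a median of -0.13. Over all tested genes 47.3% were called higher and 23.1% lower. Gcat, which acts directly after Tdh, rose from 3.31 to 5.96 CPM (0.69 ± 0.11 SE, limma adjusted p = 5.5e-05), and Amt, of the glycine cleavage system, from 1.71 to 5.17 CPM (1.18, limma adjusted p = 5.4e-06). The mitochondrial enzymes Mthfd2 and Shmt2 fell by 2.06 and 0.85 (limma adjusted p = 1.6e-11 and 2.5e-09), and Ahcy, which recycles the methyl donor product, by 0.77 (limma adjusted p = 2.8e-08). Gldc, the decarboxylating subunit of glycine cleavage, stayed below the filter. Without replicate 1 of D8, 3 genes were called higher in place of 5.

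**Figure D2:**
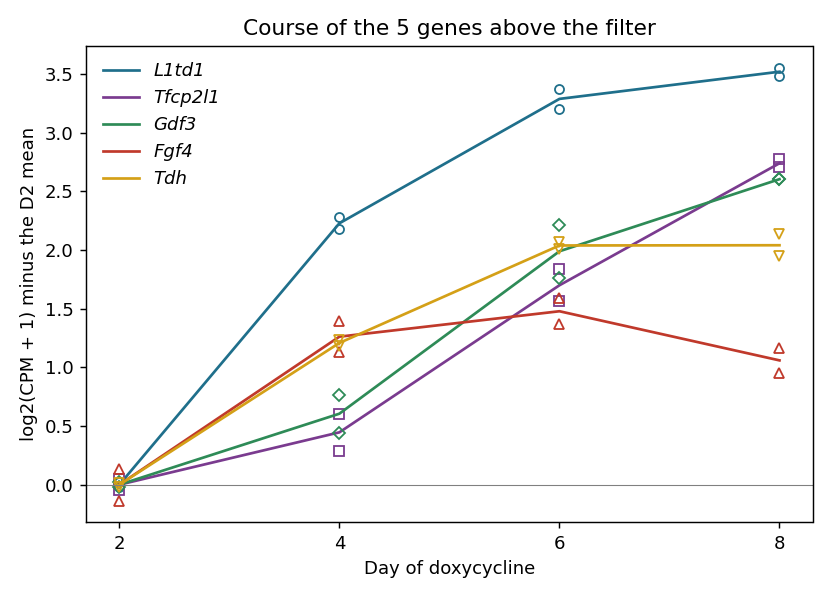
Difference of log2(CPM + 1) from the mean of D2 (y axis) against the day of doxycycline (x axis) for the 5 genes above the filter, with a point for each library and a line through the means of each day. By D6 99.9% of the difference of Tdh and 93.4% of that of L1td1 was present, against 76.4% for Gdf3 and 62.0% for Tfcp2l1, and Fgf4 lay lower on D8 than on D6.

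These 5 genes thus followed different schedules. All 5 had D4 libraries that did not overlap with those of D2, which held for 81.3% of all tested genes (62.5% were called). Between D4 and D6 it was 4 of 5, with Fgf4 as the exception, against 69% of all tested genes (37.7% called). Between D6 and D8 it was again 4 of 5, with Tdh as the exception and Fgf4 lower, against 55.8% of all tested genes. In D8 against D6 9.11% of all tested genes were called, 4.72% higher and 4.39% lower. With 2 libraries a day such gaps are common, and these counts come from the levels by which the genes were chosen and are a description. Over the 8 libraries, Pearson's r of log2(CPM + 1) was 0.994 between L1td1 and Tdh, 0.977 between Tfcp2l1 and Gdf3, and 0.514 between Tfcp2l1 and Fgf4. The points share their libraries and days, so these values describe the shape of the courses.

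Genes with the most similar courses were sought among 2247 tested genes with at least 5 CPM on their highest day and a range of at least 1 between day means. For L1td1 these were Rab3d (r = 0.999), Arap2 (0.999) and Trim2 (0.999), and 944 genes exceeded 0.95, so that its shape was a common one. For Tdh they were Ccdc3 (0.999), Aldh3a1 (0.998) and Kcnt1 (0.998), with 875 genes above 0.95. Aldh3a1, an aldehyde dehydrogenase, had 160 CPM on D2 and 1674 on D8. The shapes of the other 3 were shared by fewer genes: 326 above 0.95 for Gdf3 (first Trpc4, Zfp971 and Sntb1), 158 for Tfcp2l1 (first Spaar, Klk11 and Zfp966) and 89 for Fgf4 (first Jak3, Tle6 and Chrnb2). Trpc4, a cation channel, had 0.0249 CPM on D2 and 5.76 on D8, and Klk11, a secreted serine protease, 0.0496 and 10.02 CPM. Jak3, a tyrosine kinase of cytokine receptors, had 12.8, 26.0, 28.9 and 24.3 CPM on D2, D4, D6 and D8.

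Nanog (chromosome 6, 122707489 to 122714633, plus strand), the homeodomain factor at the core of the network, was near the bottom of the range throughout. Nanog had 0.521 and 0.252 CPM on D2, 0.302 and 0.317 on D4, 0.546 and 0.469 on D6, and 0.378 and 0.569 on D8. D2 and D8 overlapped, with means of 0.386 ± 0.190 and 0.473 ± 0.135 CPM. All libraries lay above the level of 3 reads, with 5.05 to 11.1 reads each and 66.2 in all, or 0.418 CPM over the pooled libraries (exact 95% Poisson interval 0.323 to 0.531, counting error only). None of the 8 values (0 of 8) was a whole number of reads, and how the counting made fractions is not given in the sources used here. Nanog has processed pseudogene copies in the genome, and its level is uncertain because reads of the copies and the gene may not be told apart.

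Zfp42 (chromosome 8, 43295063 to 43306980, minus strand), the zinc finger protein Rex1 and a common marker of the naive state, showed traces from D6. Its reads were 0 and 1 on D2, 0 and 1.5 on D4, 4.5 and 4 on D6, and 2 and 7 on D8. The libraries of D6 and replicate 2 of D8 reached 3 reads or more, and none before D6 did. The D8 mean was 0.231 ± 0.181 CPM, and 20 reads were counted over the 8 libraries (0.126 CPM, exact 95% Poisson interval 0.0772 to 0.195).

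Esrrb (chromosome 12, 86361117 to 86521628, plus strand), an orphan nuclear receptor of the naive network, had 1 and 4 reads on D2, 1 and 0 on D4, 0 in both libraries on D6, and 2 and 0 on D8. Its highest library was on D2, at 0.199 CPM, and the pooled level was 0.0506 CPM (exact 95% Poisson interval 0.0218 to 0.0996). Utf1 (chromosome 7, 139943789 to 139945112, plus strand), a chromatin-bound factor of undifferentiated cells, had 4 reads in all, 1 on D4, 1 on D6 and 2 on D8. In any single library with no read of these genes, a level of up to about 0.149 to 0.155 CPM remains possible at 95% confidence.

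Dppa3 (chromosome 6, 122626410 to 122630272, plus strand) is a maternal and germline factor that guards DNA methylation in the early embryo. A single read was counted, in replicate 2 of D6, and the other 7 libraries were at 0. The upper 95% bound over the pooled libraries was 0.0352 CPM. Genes of DNA methylation and demethylation, in contrast, were expressed, and 9 of 9 in the list were tested. The list includes Ehmt2, a histone methyltransferase, which rose by 0.44 in D4 against D2 and by 0.41 in D8 against D2. In D4 against D2 8 rose and 0 fell by limma (also 8 and 0 by unadjusted p under 0.05), where 40.9% of all tested genes were higher. In D8 against D2 5 rose and 1 fell, with a median of 0.41, against 47.3% and 23.1% of all tested genes. Tet1 and Tet2, which oxidise 5-methylcytosine, rose by 2.02 and 1.74 (limma adjusted p = 4.5e-08 and 2.6e-11), from 1.69 to 9.95 and from 36.7 to 124.7 CPM. Dnmt3a, a de novo methyltransferase, rose by 1.29 (limma adjusted p = 4e-10), and Tet3 by 0.74 (limma adjusted p = 8.9e-07). Dnmt1 and Uhrf1, which maintain methylation and the latter of which Dppa3 is known to bind, rose between D2 and D4 and fell between D6 and D8. Dnmt1 had 64.6, 102.1, 83.3 and 64.6 CPM on D2, D4, D6 and D8 (limma adjusted p = 4e-06 for D4 against D2, 0.0067 for D6 against D4 and 0.01 for D8 against D6). Uhrf1 had 23.0, 34.7, 30.6 and 22.3 CPM (limma adjusted p = 0.00032 for D4 against D2 and 0.023 for D8 against D6).

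**Figure D3:**
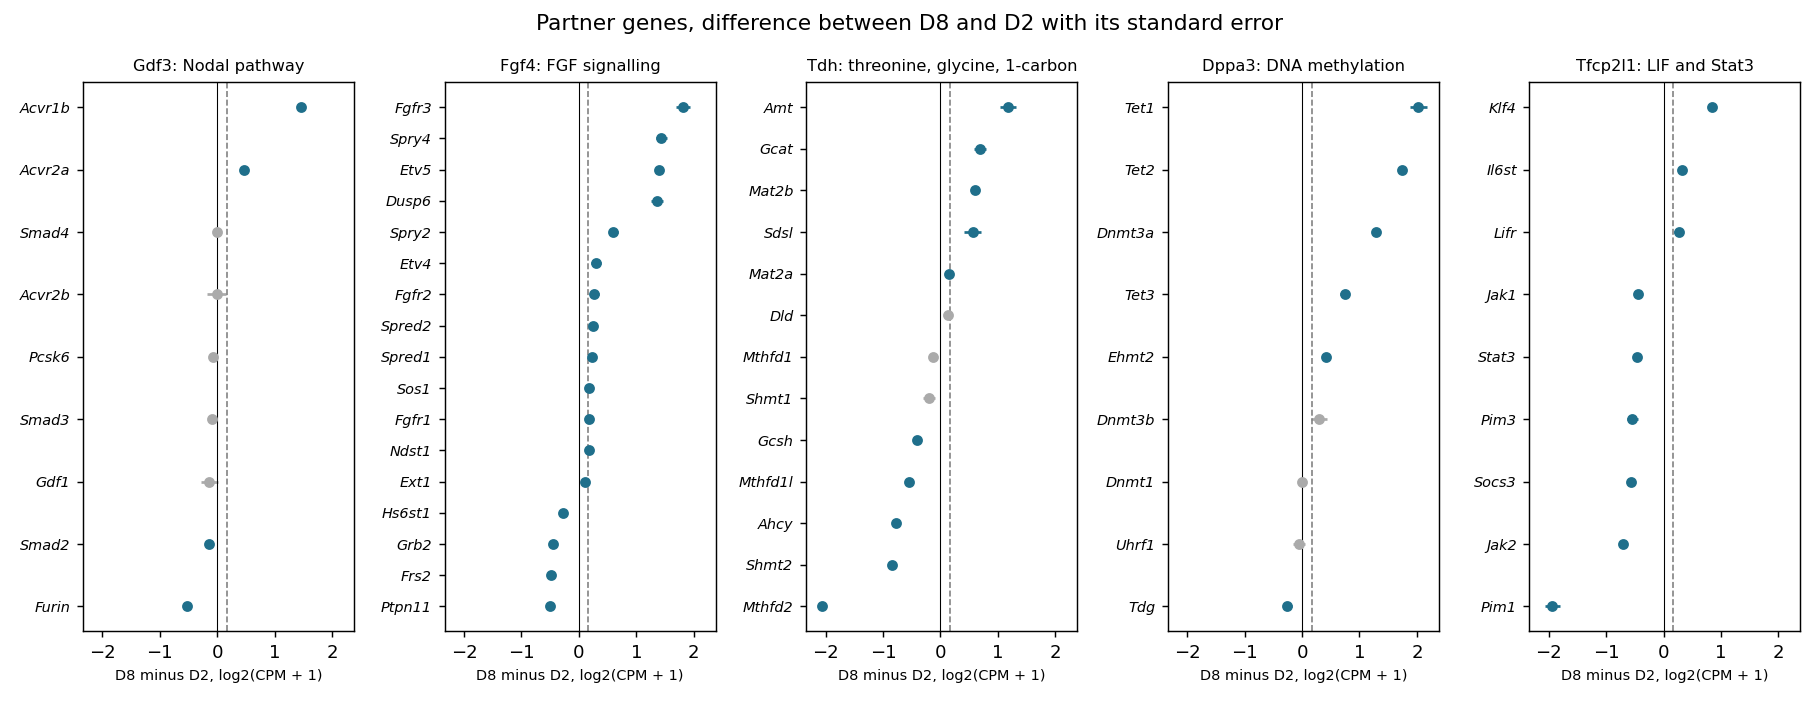
Difference between D8 and D2 on the log2(CPM + 1) scale (x axis) with its standard error for the tested genes of 5 pathways (panels), in blue where called (limma adjusted p under 0.05) and in grey otherwise; the dashed line is the median of all tested genes, 0.17. Most LIF and Stat3 genes lie left of 0, and most FGF and DNA methylation genes lie right of it, several of the FGF genes close to the dashed line.

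Gdf3, Dppa3 and Nanog lie together on chromosome 6, within 109231 bp, and differed in expression. From Gdf3 to Dppa3 the gap is 16322 bp and from Dppa3 to Nanog 77216 bp. On D8 Gdf3 was at 7.95 CPM, Dppa3 at 0 and Nanog at 0.473. Apobec1, a cytidine deaminase gene 2958 bp from Gdf3 on its other side, rose from 7.71 to 46.0 CPM (2.44 ± 0.09 SE, limma adjusted p = 3.5e-11). Slc2a3, a glucose transporter gene 13175 bp beyond Nanog, fell from 14.8 to 5.86 CPM (by 1.20, SE 0.11, limma adjusted p = 3.1e-07). The levels of the protein-coding genes thus changed from gene to gene along this region. They were higher on D8 than on D2 at Apobec1 and Gdf3, at 0 or near it at Dppa3 and Nanog, and lower on D8 at Slc2a3. Between Dppa3 and Nanog, the processed pseudogenes Gm10420 and Gm10224 lay at 28.0 to 37.0 and 24.9 to 35.0 CPM over the libraries.

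**Figure D4:**
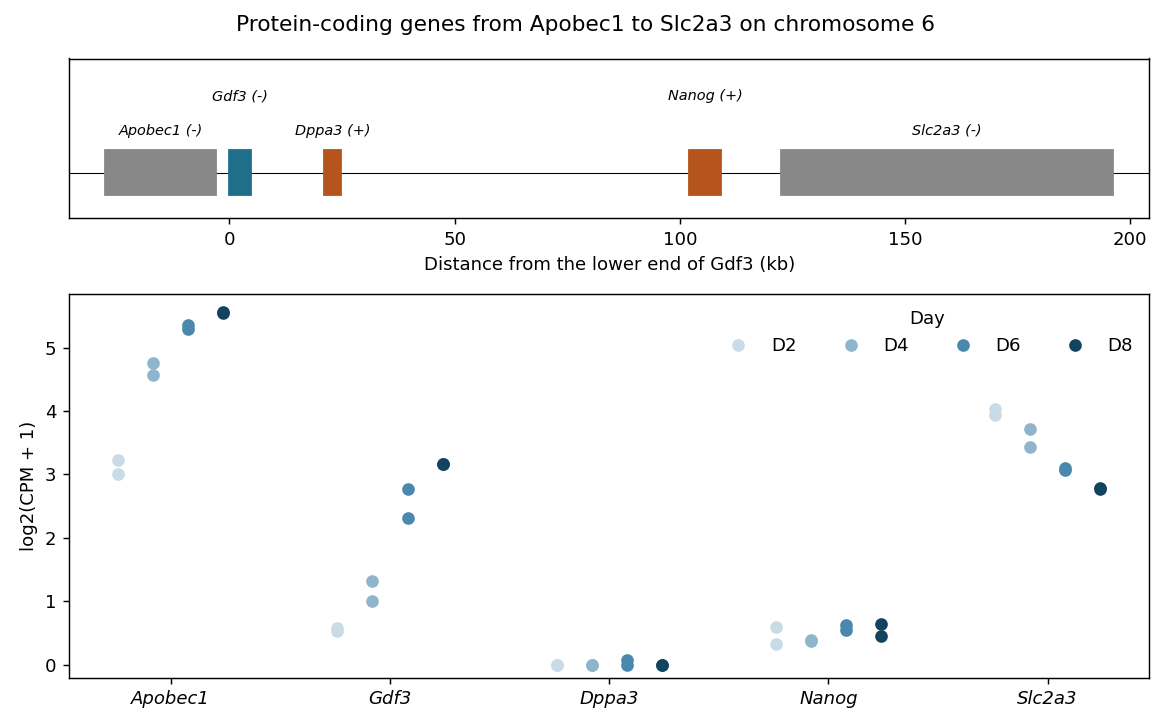
Upper panel, protein-coding genes from Apobec1 to Slc2a3 by distance from the lower end of Gdf3 (x axis, kb), drawn to scale with strands in brackets; lower panel, log2(CPM + 1) of each library (y axis) for the same genes, 2 points a day from D2 (light) to D8 (dark). Apobec1 and Gdf3 lie higher on D8 than on D2, Dppa3 and Nanog stay below 0.7 on this scale, and Slc2a3 lies lower on D8.

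The nearest genes of L1td1, Tfcp2l1, Fgf4 and Tdh did not move in 1 direction. Patj and Kank4, which flank L1td1, rose by 1.06 and 1.20 (limma adjusted p = 2.1e-07 and 3e-08). Clasp1 and Gli2, which flank Tfcp2l1, fell by 0.47 and rose by 0.61 (limma adjusted p = 9.5e-06 and 4e-06). Fgf3 and Fgf15, the FGF genes on both sides of Fgf4 at 2930 and 31287 bp from its GENCODE span, had daily means of 0.223 CPM or less. Mtmr9, beside Tdh, fell by 0.22 (limma adjusted p = 0.0024).

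The 4 factors of the cassette were the setting of these levels. Pou5f1 (Oct4), Sox2, Klf4 and Myc averaged 113, 109, 329.8 and 394 CPM on D2 and 281, 208, 593 and 717 CPM on D8. All 4 rose in D4 against D2 and in D6 against D4, where 40.9% and 25.2% of all tested genes were called higher. In D8 against D6 none (0 of 4) was called by limma, and 1 was lower at an unadjusted p under 0.05. Only 9.11% of all tested genes were called in D8 against D6. In gene counts, transcripts from the cassette cannot be told apart from those of the endogenous genes. Nanog, Esrrb, Utf1 and Dppa3 were thus near 0 on D6 and D8 in libraries where the factor genes stood at 203 CPM or more.

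The 10 genes were set against 45 other genes of the pluripotent network. Of these 18 were tested, and 27 stayed below the filter. Of the tested genes 6 rose and 8 fell in D8 against D2, with a median of -0.10 against 0.17 over all tested genes, of which 47.3% were called higher and 23.1% lower. These counts include Fbxo15, Trim71, Klf5 and Fgf5, which passed the filter only through the days on which they were high. In D4 against D2 9 rose and 5 fell, in D6 against D4 5 rose and 3 fell, and in D8 against D6 0 rose and 2 fell by limma (1 and 6 at an unadjusted p under 0.05). In the same order, 40.9% and 21.7%, 25.2% and 12.6%, and 4.72% and 4.39% of all tested genes were called higher and lower. D4 against D2 and D8 against D2 share the D2 libraries. Without the filter 12 genes were called higher in D8 against D2 in place of 6. Dnmt3l, Epcam, Lefty1, Lefty2, Nr0b1 and Sall4 were the additional ones, which were picked out after their values were seen. That fit also tested the 27 genes below the filter, except 5 at 0 in all libraries. Over all genes it called 7786 of 25416 higher and 3712 lower, so the 12 are to be read against that larger set.

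Among naive-state genes 3 of 8 tested rose and 5 fell in D8 against D2 (47.3% and 23.1% of all tested genes). Zfp57, which protects imprints, rose from 32.5 to 117.9 CPM (1.83 ± 0.07 SE, limma adjusted p = 1e-10) and Zfp296 by 1.28 (limma adjusted p = 2.7e-06). Fbxo15, an early Oct4 target, had 0.273 CPM on D2 and 3.45 on D8, a difference of 1.81. The Krüppel-like factors Klf5 and Klf2 were lower by 2.34 and 1.40 (limma adjusted p = 1.3e-06 for Klf2), and Tbx3, a T-box factor, by 1.04 (limma adjusted p = 3.1e-07). The levels of these 3 genes on D2 were 8.08, 11.2 and 20.9 CPM, and on D8 0.797, 3.57 and 9.58 CPM. Fbxo15 had no D2 library and Klf5 no D8 library at 1 CPM. Both are in the counts above, but they passed the filter only through other days, and their calls are no support for a change. Prdm14, Tcl1 and Eras were at 0 in all libraries.

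In a list labelled later-wave genes here, 3 of 6 tested rose and 2 fell in D8 against D2 (47.3% and 23.1% of all tested genes). The label does not give their timing in these libraries: 3 rose already in D4 against D2 and 0 rose in D8 against D6. Over all tested genes 40.9% and 4.72% were called higher in these comparisons. Cdh1, E-cadherin, rose from 5.07 to 36.6 CPM (2.63 ± 0.12 SE, limma adjusted p = 3.7e-10). Tet1 and Slc2a3 are described above. Trim71, an RNA-binding protein, was higher by 0.63, a call that was lost after quantile normalization (0.19, limma adjusted p = 0.24). Dppa2, Dppa4, Lin28a and Tdgf1 had daily means of 0.0928 CPM or less, a range they shared with Esrrb, Utf1 and Dppa3 on D8. Of primed-state genes 0 of 4 tested were called higher in D8 against D2 by limma (1 at an unadjusted p under 0.05) and 1 was called lower, Fgf5, with 1.37 CPM on D2 and 0.0514 on D8. Fgf5 passed the filter only through its D2 libraries, so that it had to differ, and its call is no support for a change. Fbxo15 and Trim71, with no D2 library at 1 CPM, and Klf5, with no D8 library at 1 CPM, likewise owe their place among the tested genes to the days on which they were high. Their calls are no support for a change either.

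**Figure D5:**
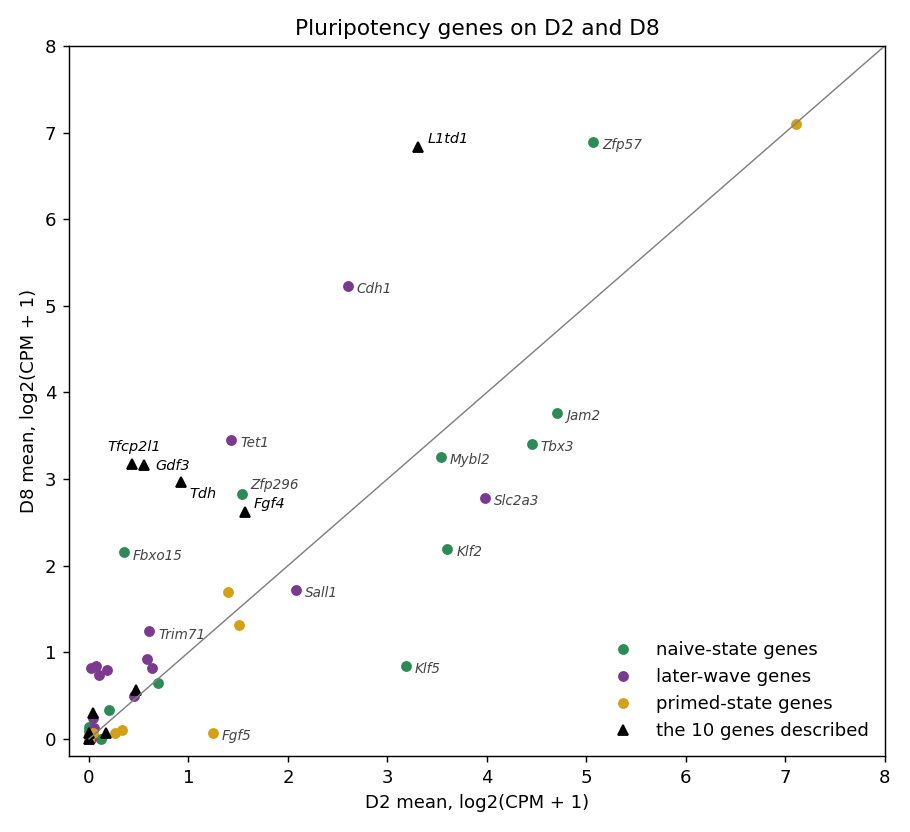
Mean log2(CPM + 1) on D8 (y axis) against that on D2 (x axis) for the 10 genes (triangles) and 45 other pluripotency genes in 3 lists (coloured circles); the line marks equal levels, and names are given for the 5 described genes above the filter and for called genes. L1td1, Tfcp2l1, Gdf3, Tdh and Fgf4 lie above the line with Zfp57, Cdh1, Tet1, Zfp296, Fbxo15 and Trim71, and most other genes lie near the lower left corner.

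Cofactors of the network were expressed on all days. All 17 cofactor genes in the table were tested, 10 rose and 1 fell in D8 against D2, with a median of 0.42, against 47.3% higher and 23.1% lower over all tested genes. The number lower was 3 under either other scaling and 0 without replicate 1 or 2 of D2 or replicate 1 of D8. Rif1, a chromatin protein, rose by 1.18 (limma adjusted p = 5.3e-09), Jarid2, a Polycomb partner, by 1.14 (limma adjusted p = 1.7e-07) and Kdm3a, an H3K9 demethylase, by 0.87 (limma adjusted p = 6.3e-09). Of 13 genes of factors known to repress pluripotency genes 7 were called higher and 2 lower, with a median of 0.32 and against the same 47.3% and 23.1%. Tcf7l1 (Tcf3), a repressor of Nanog, rose from 45.4 to 88.9 CPM (0.95 ± 0.08 SE, limma adjusted p = 1.3e-07). Nr6a1 (Gcnf) rose by 0.62 (limma adjusted p = 4e-05) and Zeb2 by 0.53 (limma adjusted p = 1.2e-06). Nr2f1 rose by 0.43 (limma adjusted p = 0.0033), a call lost after quantile normalization (0.07, adjusted p = 0.6). After median-of-ratios scaling 6 repressor genes were called higher and 5 lower in place of 7 and 2, and without replicate 1 of D2 1 was lower.

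All tested genes had a median difference of 0.17 in D8 against D2 and 0.11 in D4 against D2, so small rises are to be read against that shift. Of the genes called in D8 against D2 67.2% were higher. That share was 50.7% with the median-of-ratios scaling and 45.1% with quantile normalization. The corresponding shares were 65.3%, 52.5% and 47.1% in D4 against D2 and 66.7%, 46.8% and 47.7% in D6 against D4. The D8 minus D2 differences of the 5 expressed members stayed above 0 under these scalings, from 0.64 (Fgf4) to 3.26 (L1td1) after quantile normalization.

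Of the 7 fibroblast markers 2 (Col3a1 and Pdgfra) were called higher and 3 (Thy1, Pdgfrb and Vim) lower in D8 against D2. Over all tested genes 47.3% were called higher and 23.1% lower. Markers of other cells moved over the same days. Epithelial markers (Cdh1, Epcam, Krt8, Krt18, Ocln, Cldn3 and Cldn4) summed to 7.79 and 9.78 CPM in the D2 libraries and to 168 and 176 CPM on D8, and Krt8 and Cdh1 made up most of the D8 sum. All 5 tested markers were called higher in D8 against D2 (47.3% of all tested genes), but Ocln, Cldn3 and Cldn4 had no D2 library at 1 CPM and passed the filter only through later days. Cdh1 and Epcam are also in the list labelled later-wave genes. Endothelial markers summed to 69.0 to 71.4 CPM on D2 and to 165 to 166 on D8, of which Tek, at 65.3 and 161.9 CPM, was the main part. Of the 4 tested endothelial markers 3 were called higher and 1 lower in D8 against D2, against 47.3% and 23.1% of all tested genes. Tie1 and Pecam1 were called higher, from means of 0.0993 and 0.229 CPM on D2. Both had no D2 library at 1 CPM and passed the filter only through later days. Kdr fell from 4.32 to 1.00 CPM (by 1.42, limma adjusted p = 2.6e-06), and Cdh5 averaged 0.274 and 0.129 CPM. Macrophage markers lay between 56.9 and 81.9 CPM on all days, with 6 of 6 above the filter. Neural markers summed to 168 CPM on D2 and to 48.9 to 51.8 on D8, which was mostly Tubb3 (167.9 and 43.6 CPM), whereas Sox1 averaged 0.0249 CPM on D2 and 6.41 on D8. The endoderm markers summed to 4.02 to 8.92 CPM, with 1 of 5 at 0 in all libraries. Germ cell markers reached 3.57 CPM (1 of 5 at 0), trophoblast markers 4.61 CPM and markers of 2-cell-like cells 0.140 CPM. The part of these cells in the levels of the 10 genes was not tested.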

How the data were processed

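RNA from 8 libraries of 4F2A MEFs (D2, D4, D6 and D8, 2 each) was sequenced on a BGISEQ-500 instrument, per the labels. Trimmomatic 0.39, featureCounts and the build mm10 are named in the submitters' processing notes. Neither the aligner, the annotation and the strand setting nor the treatment of multi-mapping reads is given in the sources used here. The authors deposited 1 table with values in CPM: each column sums to 1000000, and within a library every value is a multiple of a constant step of 1 hundredth of a read. The table's name speaks of TPM, which these steps contradict. Only 52.8% to 54.3% of non-zero values were whole reads (within 0.02 hundredths of a read), so no count test was run. Reads given in the text are CPM divided by the value of 1 read.

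Symbols came from GENCODE M21 for 32029 of 32108 identifiers (79 without), and 0 columns belonged to no sample. The 15358 genes that reached 1 CPM in 2 or more libraries were fitted with limma 3.58.1 in R 4.3.3 (lmFit, eBayes with trend) on log2(CPM + 1), which understates folds of low genes. All 8 libraries and 4 residual degrees of freedom were used. Tests were two-sided, their p-values were adjusted over all these genes (Benjamini-Hochberg), and calls required an adjusted p under 0.05. The fit had been planned for the table's values before their unit was known. The 10 genes have no test, since their levels by day chose them. Fits were checked on simulated data. Promoters were those of RefSeq in GRCm38.p6, and Python 3.11.15 did the rest. The members and lists were chosen with earlier results of these data known. From each list, the text names up to 4 called genes with the largest change in D8 against D2 and the defining genes that were not tested. It also names the 4 factors, flanking genes and the 3 most similar courses. Stat3, Fgfr1, Dnmt1, Uhrf1, Gcat, Zfp296, Tbx3 and single cell type markers were named beside the rule, after their values were seen. Alternatives were a pseudocount of 0.1, no filter, other scalings, fits of the 2 days compared, a replicate block and leaving out each library.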

Additional observations from a re-analysis of the deposited data

How the results depend on the processing

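The sign of the D8 minus D2 difference of the members and of the named genes that were recomputed did not reverse under the alternatives, whereas the balance of calls over all genes did under quantile normalization (67.2% to 45.1% higher), as did that of the genes related to the members, from 5 higher and 0 lower to 1 and 2. The D8 minus D2 differences of the 5 expressed members moved with a pseudocount of 0.1 (3.64 for L1td1, 4.18 for Tfcp2l1, 3.82 for Gdf3, 1.36 for Fgf4 and 2.79 for Tdh) and quantile normalization (3.26, 2.25, 2.16, 0.64 and 1.66). Of the other pluripotency genes, 12 were called higher in D8 against D2 without the filter in place of 6. More of them were tested in that fit, which called 7786 of all 25416 genes higher. After quantile normalization 6 were called lower in D6 against D4 in place of 3, where 2942 of all 15358 genes were. Leaving out 1 library at a time gave 5 to 8 genes lower in D8 against D2 (8 with all; 5 without replicate 1 of D2). The 2 genes lower in D8 against D6 became 0 without the filter, 1 with only the 2 days compared and 0 to 3 without 1 library. The cause of these shifts was not tested. The labels share replicate numbers, and correlations of same-numbered deviations ran from -0.10 (D4 and D6) to 0.21 (D4 and D8). These values show no clear pairing of the libraries by number but cannot exclude one. With a replicate block 1 gene was higher and 3 lower in D8 against D6 in place of 0 and 2, and crossing the numbers of D6, added after seeing the data, gave 5 and 3 in D6 against D4 as in the fit without a block. Of the counts over the other lists under alternatives, 34 moved by more than 1.5 times and 414 did not. In a library without a read of a gene, levels of up to about 0.149 to 0.155 CPM remain possible at 95% confidence.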
